A study of Homo sapiens with 24 samples.

Results

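The comparison described here is the difference between 2 glioma cell lines in their response to EGCG, that is, the change from control to EGCG in LN18 minus the same change in 1321N1. It uses 12 of the 24 libraries of the study, namely all those labelled control or EGCG, with 3 libraries in each of 4 groups. LN18 is a line from a grade IV glioma and 1321N1 one from a grade II glioma. EGCG was given to both lines at 50 µg/ml for 24 h, and the controls were cells of the same line with 0.1% ethanol as vehicle, while the EGCG stock was prepared in medium. The labels call the 3 libraries of a group independent tests. LN18 was grown with 5% fetal bovine serum and 1321N1 with 10%, so that line and serum cannot be told apart. Poly(A) RNA was sequenced, and gene levels were deposited as RPKM (read counts scaled to transcript length and to the depth of the library).

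EGCG (epigallocatechin-3-gallate) is the most abundant catechin of green tea. In culture it can act as an antioxidant, and it can also oxidise in the medium and give rise to hydrogen peroxide. It binds metal ions such as iron and copper. Oxidised or metal-stressed cells commonly switch on targets of the transcription factor NRF2, which drives antioxidant genes, and cells with misfolded proteins or short of amino acids switch on targets of ATF4.

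The 12 libraries held 15.3 to 32.3 M counted reads (median 19.75 M, where M is 1e6 reads), as recovered from the steps between low values. For replicate 1 of LN18 control and replicate 3 of 1321N1 EGCG a depth about 2 times larger (30.7 M in place of 15.4 M, and 35.6 M in place of 17.8 M) matched the steps slightly better, so that their depth is uncertain by that factor. For a transcript of 2 kb, 1 RPKM corresponds, with the range of depths given first, to between 30.6 and 64.6 reads and to a counting error between 12.4 and 18.1%. The library nearest to each of the 12 was one of its own group. The glial label was checked against markers: VIM, the intermediate filament vimentin, and CD44, a hyaluronan receptor, were abundant in both lines, whereas GFAP, ALDH1L1, SLC1A2 and FABP7, defining markers of astroglia, were below 0.5 RPKM in all 12 libraries. Of the other members measured, SLC1A3 averaged 5.50 RPKM with EGCG and 11.6 RPKM in controls in LN18, and 0.344 and 0.258 RPKM in 1321N1. SOX9 averaged 2.51 and 4.0 RPKM in LN18 and 5.48 and 4.86 RPKM in 1321N1, in the same order. NES averaged 0.109 and 0.039 RPKM in LN18 and 1.21 and 1.32 RPKM in 1321N1. The differences of SLC1A3 and SOX9 were -1.05 and -0.65 (limma adjusted p = 1.19e-06 and 0.00138). Markers of neurons summed to 0.893 to 1.58 RPKM, and among blood markers only CD68, a lysosomal glycoprotein, reached 1 RPKM. The summed blood markers ranged over 40.6 to 43.5 RPKM in LN18 EGCG, 17.3 to 20.2 in LN18 control, 30.1 to 32.9 in 1321N1 EGCG and 23.6 to 25.7 in 1321N1 control, with PTPRC, CD14 and ITGAM below 0.5 RPKM in all 12. Epithelial markers were present mainly through the keratins KRT8 and KRT18, and their sum was 123.8 to 130.6 RPKM in LN18 EGCG, 135.8 to 145.3 in LN18 control, 18.7 to 19.9 in 1321N1 EGCG and 12.5 to 12.8 in 1321N1 control, with EPCAM, CDH1 and KRT5 below 0.5 RPKM in all 12. KRT18 rose in 1321N1 by 0.61 and had a difference of -0.82 (SE 0.048, limma adjusted p = 3.29e-07). The part of blood and epithelial markers in the results was not tested. In bulk RNA, fewer cells of a type and less RNA per cell cannot be told apart. In replicates 2 and 3 of 1321N1 EGCG, 795 genes were listed at 0 that were above 0 in the other 4 libraries of that line, against 5 to 132 for the other pairs of libraries of a group. These genes were set apart before the tests and are described at the end.

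Genes were compared as log2(RPKM + 1) with limma, and a gene is called where the adjusted p (Benjamini-Hochberg) does not exceed 0.05 and the change is 1.5-fold or more on that scale. Because 1 is added to each value, changes of weakly expressed genes are understated. Below, a response is EGCG minus control within a line, a difference is the LN18 response minus the 1321N1 response, and both are in log2 units. A positive difference means that EGCG raised the gene more, or lowered it less, in LN18 than in 1321N1.

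The response to EGCG differed between the lines for 2213 of 13250 genes tested, 16.7% of them. The difference was negative for 1537 genes (11.6%) and positive for 676 (5.1%). LN18 was the line with more called genes in its own response: 1058 genes rose (7.98%) and 1262 fell (9.52%), 2320 in all (17.5%), whereas in 1321N1 429 rose (3.24%) and 194 fell (1.46%), 623 in all (4.7%). The largest class of negative differences held 879 genes that fell in LN18 and were not called in 1321N1, and the largest class of positive ones 426 genes that rose in LN18 and were not called in 1321N1. A further 148 negative differences came from genes that rose in 1321N1 and were not called in LN18, and 64 positive ones from genes that fell in 1321N1 and were not called in LN18. Neither line was called on its own for 474 negative and 162 positive differences. The lines moved in opposite directions, each past the threshold, for 29 genes (0.219%), and in the same direction for 203 (1.53%), of which 133 rose (1.0%) and 70 fell (0.528%) in both. With no fold limit the difference was called for 54.7% of genes.

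The median over all genes tested was 0.02 for the LN18 response, 0.10 for the 1321N1 response and -0.08 for the difference. Under quantile normalization the difference was positive for 849 genes and negative for 1164, so that the share of positive calls was 42.2%, against 30.5% with the values as deposited, and 1321N1 then had 299 genes higher and 295 lower. Negative differences outnumbered positive ones under each of the 3 scalings tried. The split within 1321N1 was 395 higher and 289 lower without replicates 2 and 3 of its EGCG group. Across genes the responses of the lines had a Pearson correlation of 0.324 (13250 genes, which are not independent replicates). Of the called genes, 551 with a positive and 1405 with a negative difference had a mean of at least 1 RPKM in both lines. A further 93 positive and 75 negative ones reached that mean in LN18 only, and 32 and 57 in 1321N1 only, and a gene near 0 in a line has little room to fall there.

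**Figure D1:**
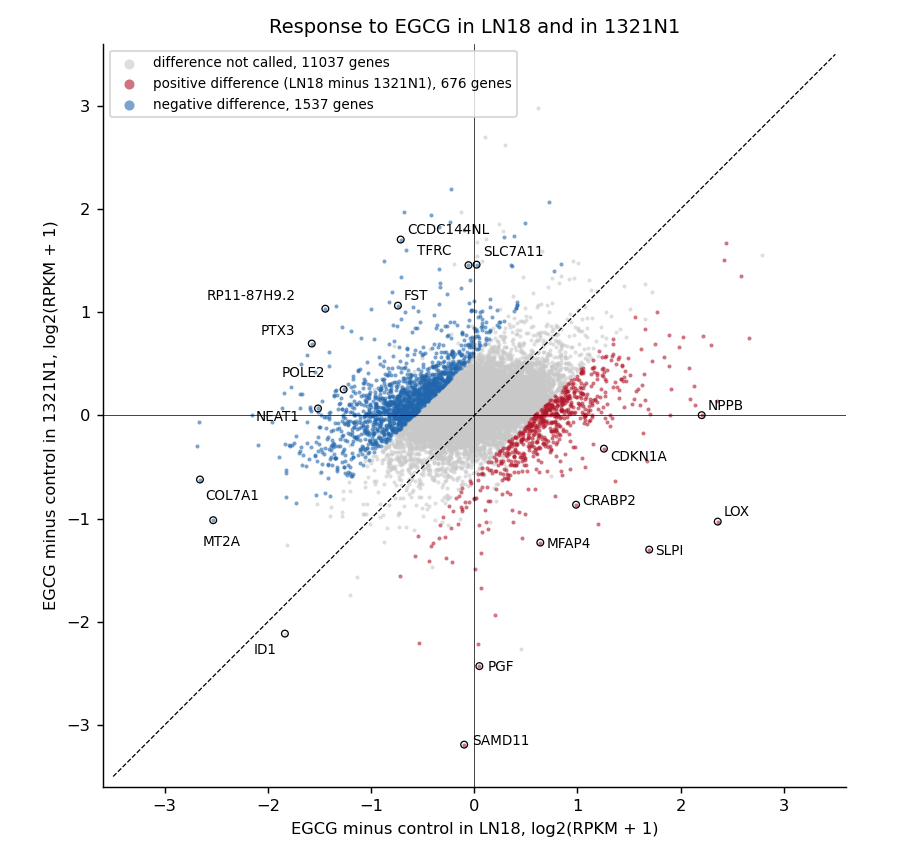
Response to EGCG in LN18 (x axis) and in 1321N1 (y axis) for 13250 genes, both as EGCG minus control in log2(RPKM + 1) and each point 1 gene. Red points are the 676 genes with a called positive difference LN18 minus 1321N1, blue points the 1537 with a negative one, the dashed line marks equal responses, and the cloud is wider along the LN18 axis, with LOX at the lower right and SAMD11 at the bottom.

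The largest difference among the genes tested was in LOX, which encodes lysyl oxidase, the enzyme that cross-links collagen and elastin and a known target of hypoxia-inducible factors. In GRCh37 (GENCODE v44lift37) LOX occupies the minus strand of chromosome 5 from 121398890 to 121414108. LOX had 34, 33.3 and 32.7 RPKM in LN18 EGCG libraries, against 5.70, 5.69 and 5.67 RPKM in LN18 controls. In 1321N1 it had 101, 100.4 and 99.97 RPKM with EGCG, against 208, 206 and 205 RPKM in controls. EGCG and control libraries overlapped in neither line. LOX thus rose in LN18 by 2.36 (SE 0.023) and fell by 1.03 (SE 0.023) in 1321N1, and the difference was 3.39 (SE 0.033, limma adjusted p = 2.37e-13, n = 3 libraries per group). Even after these changes its level in LN18 EGCG cells was below that of 1321N1 EGCG cells.

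The window of 250 bases before to 50 bases after the LOX start site is shown because this gene leads the comparison and its promoter holds the letters ACGTG, the core of the site of hypoxia-inducible factors, on either strand. The window is from RefSeq on GRCh38.p14, and its 4 matches are in capitals.

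LOX, chr5:122078210-122078509, minus strand: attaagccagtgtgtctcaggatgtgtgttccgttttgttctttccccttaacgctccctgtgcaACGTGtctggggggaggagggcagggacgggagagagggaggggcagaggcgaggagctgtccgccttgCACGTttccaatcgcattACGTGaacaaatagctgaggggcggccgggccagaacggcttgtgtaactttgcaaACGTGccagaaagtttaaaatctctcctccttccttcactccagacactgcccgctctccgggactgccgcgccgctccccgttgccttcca

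ACGTG or its reverse complement occurs in 5900 of 27305 such windows (21.6%), so a match is common, and it is a description of the letters and not a site. Of the hypoxia targets with a window, 4 of 10 with a positive difference and 5 of 7 without a called difference held it, as did none of the 2 with a negative difference and 9 of 19 (47.4%) over the whole list.

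Another 5 genes rose in LN18 and fell in 1321N1, 6 with LOX (0.0453% of genes tested). SLPI, a secreted inhibitor of leukocyte proteases, had 13.2, 11.8 and 12.8 RPKM in LN18 EGCG cells, against 4.59, 2.60 and 2.65 in LN18 controls. Libraries of 1321N1 had 2.20, 3.37 and 2.65 RPKM with EGCG, against 9.85, 7.67 and 7.12 RPKM in controls. The libraries of EGCG and control did not overlap in either line, which holds for EGCG and control of 74.5% of all genes tested in LN18 and 54.3% in 1321N1. The difference of SLPI was 3.0 (SE 0.25, limma adjusted p = 3.08e-06).

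MFAP4, a glycoprotein that binds microfibrils, had a difference of 1.87 (SE 0.15, limma adjusted p = 2.31e-06). It averaged 40.5 RPKM with EGCG and 25.9 RPKM in controls in LN18, and 30.4 RPKM with EGCG and 72.5 RPKM in controls in 1321N1. CRABP2, which carries retinoic acid to its receptor, had a difference of 1.85 (SE 0.10, limma adjusted p = 1.94e-07), and CHST3, a sulfotransferase of chondroitin, one of 1.30 (SE 0.070, limma adjusted p = 1.93e-07). LOX and MFAP4 both act on elastic fibres of the extracellular matrix.

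In the other orientation 23 genes fell in LN18 and rose in 1321N1 (0.174%). FST encodes follistatin, a secreted protein that binds and blocks activin. FST had 148, 147 and 149.9 RPKM in LN18 EGCG cells, against 229, 270.4 and 247 RPKM in LN18 controls. Its values in 1321N1 were 23.8, 26.3 and 23.6 RPKM with EGCG, against 10.6, 11.6 and 11.4 RPKM in controls. The groups did not overlap in either line, and the difference was -1.80 (SE 0.084, limma adjusted p = 7.86e-08).

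PTX3, a secreted pentraxin of innate immunity, moved in the same manner. PTX3 had 3.18, 2.54 and 3.22 RPKM in LN18 EGCG cells, against 11.4, 11.1 and 10.0 RPKM in LN18 controls. The 1321N1 libraries had 6.45, 7.08 and 7.49 RPKM with EGCG, against 3.97, 3.95 and 3.88 RPKM in controls. The order of the lines was thus turned round, since LN18 had the higher level in controls and 1321N1 with EGCG. The difference of PTX3 was -2.27 (SE 0.10, limma adjusted p = 7.49e-08).

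Several of the 23 are known only by clone names. RP11-87H9.2 averaged 39.2 RPKM with EGCG and 109 RPKM in controls in LN18, and 685 RPKM with EGCG and 334 RPKM in controls in 1321N1, with a difference of -2.48 (SE 0.13, limma adjusted p = 1.91e-07). CCDC144NL had 7.07 RPKM in replicate 1 of 1321N1 EGCG, against 15.6 and 13.8 RPKM in replicates 2 and 3, and 2.52 to 3.18 RPKM in controls. RP11-146D12.2 had 35.8 RPKM in replicate 1, against 86.5 and 73.7 RPKM in replicates 2 and 3. In these genes and in AC097374.2 the replicates of 1321N1 EGCG thus stood apart from each other, in the libraries that also hold the genes listed at 0. Without replicates 2 and 3 the differences of CCDC144NL, RP11-146D12.2 and AC097374.2 were -1.78, -1.64 and -1.41, each still called, on the assumption that replicate 1 varies as the other groups do. RP11-197K6.1 was the last of the named genes of this kind, with a difference of -2.14 (SE 0.16, limma adjusted p = 1.48e-06). The library kit did not keep the strand, so reads of an antisense or overlapping gene cannot be told apart from these.

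**Figure D2:**
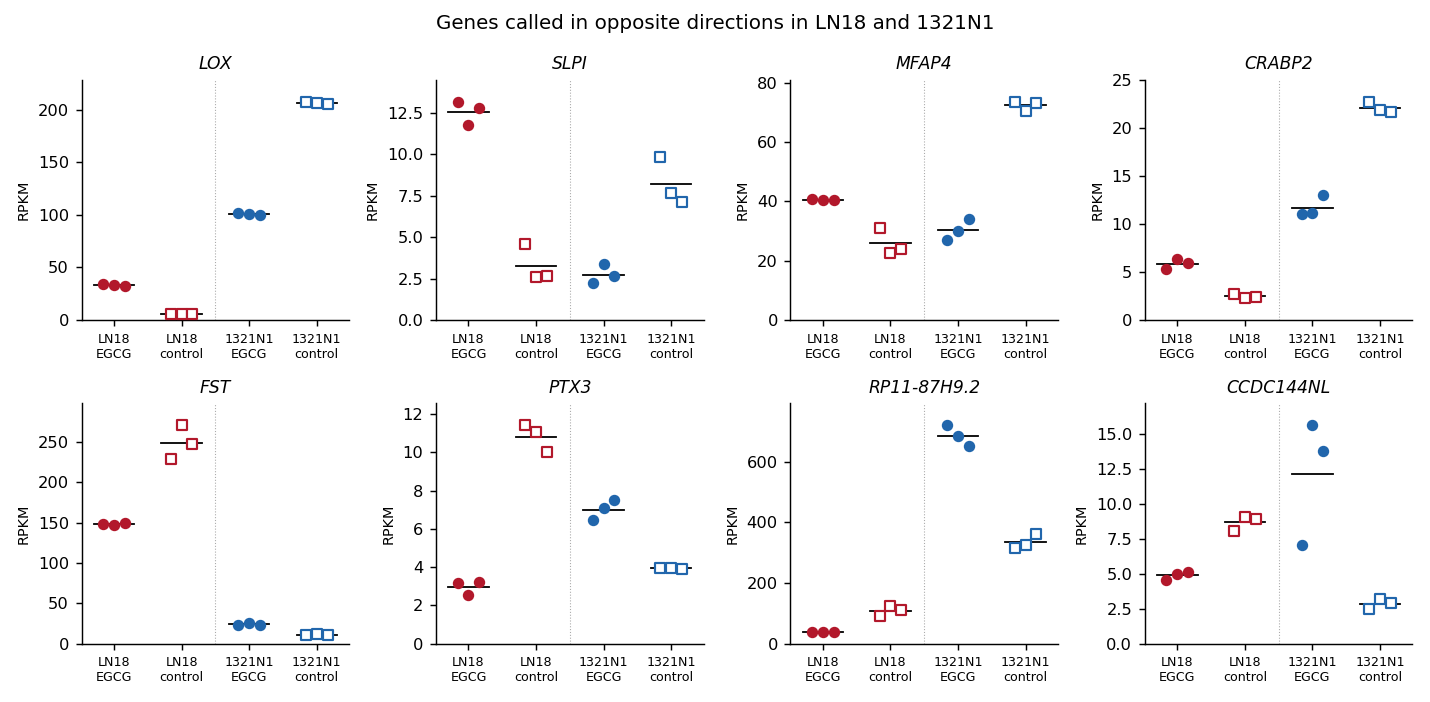
Level in RPKM (y axis, from 0) of 8 genes that moved in opposite directions in the lines, by group and library. Each point is 1 library, filled circles are EGCG, open squares are controls, red is LN18, blue is 1321N1, and the bar is the mean of 3 libraries, and in LOX, SLPI, MFAP4 and CRABP2 the LN18 EGCG points lie above their controls and the 1321N1 EGCG points below theirs, with the reverse in the lower row.

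Large differences also came from genes that moved in 1321N1 and not in LN18. SAMD11, which encodes a nuclear protein with a SAM domain, had 1.42, 1.78 and 1.37 RPKM in 1321N1 EGCG cells, against 24.2, 22.1 and 19.9 RPKM in 1321N1 controls. In LN18 it had 2.08 to 2.48 RPKM with EGCG and 2.25 to 2.83 RPKM in controls, with overlap, and the difference was 3.09 (SE 0.13, limma adjusted p = 4.12e-08). PGF, placental growth factor, and IGFBP3, a binding protein of insulin-like growth factors, had the same pattern. PGF fell by 2.43 in 1321N1, with a difference of 2.48 (SE 0.099, limma adjusted p = 3.77e-08). IGFBP3 averaged 24.8 RPKM in 1321N1 EGCG cells, against 80.8 RPKM in 1321N1 controls, while LN18 had 34 RPKM with EGCG and 32.3 RPKM in controls. Its difference was 1.74 (SE 0.058, limma adjusted p = 1.17e-08). MEGF6 fell by 2.21 in 1321N1, but it was at 0.104 RPKM or less in every LN18 library, so no fall could be seen in that line.

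Other genes moved in LN18 and less or not at all past the threshold in 1321N1. NPPB, which encodes the natriuretic peptide BNP, had 10.7, 11 and 11.2 RPKM in LN18 EGCG cells, against 1.13, 1.78 and 1.96 RPKM in LN18 controls, and at most 0.081 RPKM in any 1321N1 library. CNN1, calponin of smooth muscle, had 7.51, 8.51 and 7.55 RPKM in LN18 EGCG cells, against 0.732, 1.14 and 1.18 RPKM in LN18 controls, with a difference of 2.04 (SE 0.14, limma adjusted p = 8.58e-07). Among falls, COL7A1, a collagen of anchoring fibrils, had 3.99, 4.22 and 3.96 RPKM in LN18 EGCG cells, against 31.4, 30.5 and 30.9 RPKM in LN18 controls. COL7A1 also fell by 0.62 in 1321N1, where it was low, and its difference was -2.04 (SE 0.056, limma adjusted p = 5.99e-09). NEAT1, the long RNA around which paraspeckles form, averaged 79.2 RPKM in LN18 EGCG cells, against 228 RPKM in LN18 controls, and 192 RPKM with EGCG and 184 RPKM in controls in 1321N1. The difference of NEAT1 was -1.58 (SE 0.048, limma adjusted p = 8.78e-09). The pseudogenes CYP4F32P and PHF2P2 fell in LN18 with differences of -2.39 and -2.16, and their reads may be shared with related genes.

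DNA replication was the gene list with the most negative differences. Of 45 tested members, 24 had a negative and 1 a positive difference, against 11.6% negative and 5.1% positive among all genes, with a median of -0.59 over the list and -0.08 over all genes. In LN18 19 members fell and none rose (9.52 and 7.98% of all genes), with a median response of -0.45. No member was called in either direction in 1321N1, where the median response was 0.11. The members called included 5 of 6 subunits of the MCM helicase, which unwinds the DNA, and 5 of 6 listed subunits of the replicative polymerases alpha, delta and epsilon. Under quantile normalization the list had 21 negative differences, and with 5 added in place of 1 it had 18. Without replicates 2 and 3 of 1321N1 EGCG its median difference was -0.58.

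CDC45, which joins the MCM helicase at the replication fork, had 11.6, 10.6 and 10.9 RPKM in LN18 EGCG cells, against 29.5, 28.4 and 28.1 RPKM in LN18 controls. In 1321N1 it had 10.9, 11.7 and 12.3 RPKM with EGCG, against 10.8, 10.7 and 10.3 RPKM in controls. The LN18 EGCG libraries lay within the range of the 1321N1 libraries, and the difference was -1.43 (SE 0.065, limma adjusted p = 7.32e-08). MCM6 had 12.8, 12.4 and 12.8 RPKM in LN18 EGCG cells, against 29.4, 29.9 and 29.3 RPKM in LN18 controls. Libraries of 1321N1 had 30.4, 29.0 and 27.8 RPKM with EGCG, against 25.8, 27.2 and 25.8 RPKM in controls. Its difference was -1.30 (SE 0.051, limma adjusted p = 3.53e-08). POLE2 and POLE, subunits of polymerase epsilon, had differences of -1.52 (SE 0.071) and -1.16 (SE 0.051, limma adjusted p = 7.91e-08 and 6.01e-08). The exception was the licensing factor CDT1, with a positive difference of 0.62 and no call in either line, named here after its value was seen.

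Promoters of this list are shown because it had the most negative differences and 18 of 37 windows held the same letters (48.6%). TTTCCCGC and TTTGGCGC are forms of the site of E2F factors, which drive genes of the G1/S transition. Either form, on either strand, occurs in 631 of 27305 RefSeq promoter windows (2.31%). Of the replication genes with a window, 13 of 18 with a negative difference held a match (72.2%), against 4 of 18 without a called difference (22.2%) and the window of CDT1, the 1 member with a positive difference. Since 37 of the 45 members had a window, the rest were not examined. A match is a description of the letters and not a site, and the part of E2F factors was not tested. The windows of MCM6, with 2 matches, and POLE2, with 1, follow with the matches in capitals (RefSeq, GRCh38.p14).

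MCM6, chr2:135876394-135876693, minus strand: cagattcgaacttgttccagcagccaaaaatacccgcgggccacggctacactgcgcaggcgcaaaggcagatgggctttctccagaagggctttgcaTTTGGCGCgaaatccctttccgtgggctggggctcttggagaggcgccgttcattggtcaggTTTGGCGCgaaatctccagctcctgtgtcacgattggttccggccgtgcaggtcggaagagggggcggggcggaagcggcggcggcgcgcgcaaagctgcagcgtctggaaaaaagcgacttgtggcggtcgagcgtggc

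POLE2, chr14:49688165-49688464, minus strand: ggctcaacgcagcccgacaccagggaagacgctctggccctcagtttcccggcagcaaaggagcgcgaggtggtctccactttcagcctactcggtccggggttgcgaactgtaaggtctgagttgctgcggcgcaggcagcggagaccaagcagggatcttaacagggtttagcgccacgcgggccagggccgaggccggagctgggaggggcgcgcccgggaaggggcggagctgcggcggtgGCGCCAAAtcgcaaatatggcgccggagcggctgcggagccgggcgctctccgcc

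The window of CDC45 held neither form, which says only that these letters are not in it. Mitosis genes differed little between the lines, with 2 negative and 1 positive difference among 48 members and a median of -0.01. The 2 were CENPE, a kinesin of the kinetochore (-0.77), and HMMR, a receptor of hyaluronan that also binds the spindle (-0.72), and the positive one was the centrosome kinase NEK2 (0.63). Without replicates 2 and 3 of 1321N1 EGCG the difference of NEK2 was 0.58 and no longer called, and the list had 3 negative and no positive ones. With 5 added in place of 1 no mitosis gene was called under limma. Of the p53 targets, 4 had a positive and 2 a negative difference among 22 (27.3% called), and the 2 negative ones are near the 11.6% of all genes, which had 5.1% positive. The median difference of the list was 0.06, against -0.08 over all genes. The most negative was PLK2 (-1.13), which fell by 0.68 in LN18 and had a response of 0.46 in 1321N1, below the fold limit. CDKN1A, the inhibitor of cyclin-dependent kinases p21, had 21.8, 21.3 and 21.4 RPKM in LN18 EGCG cells, against 8.38, 7.87 and 9.04 RPKM in LN18 controls. In 1321N1 CDKN1A had 12.4, 13.6 and 13.3 RPKM with EGCG, against 17.8, 16.4 and 15.6 RPKM in controls, a change of -0.32 that did not reach the fold limit. The difference was 1.58 (SE 0.079, limma adjusted p = 1.16e-07). PMAIP1, the BH3-only protein NOXA, averaged 43.2 RPKM with EGCG and 24.5 RPKM in controls in LN18, and 18.6 RPKM with EGCG and 22.9 RPKM in controls in 1321N1, with a difference of 1.08 (SE 0.086, limma adjusted p = 2.60e-06).

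**Figure D3:**
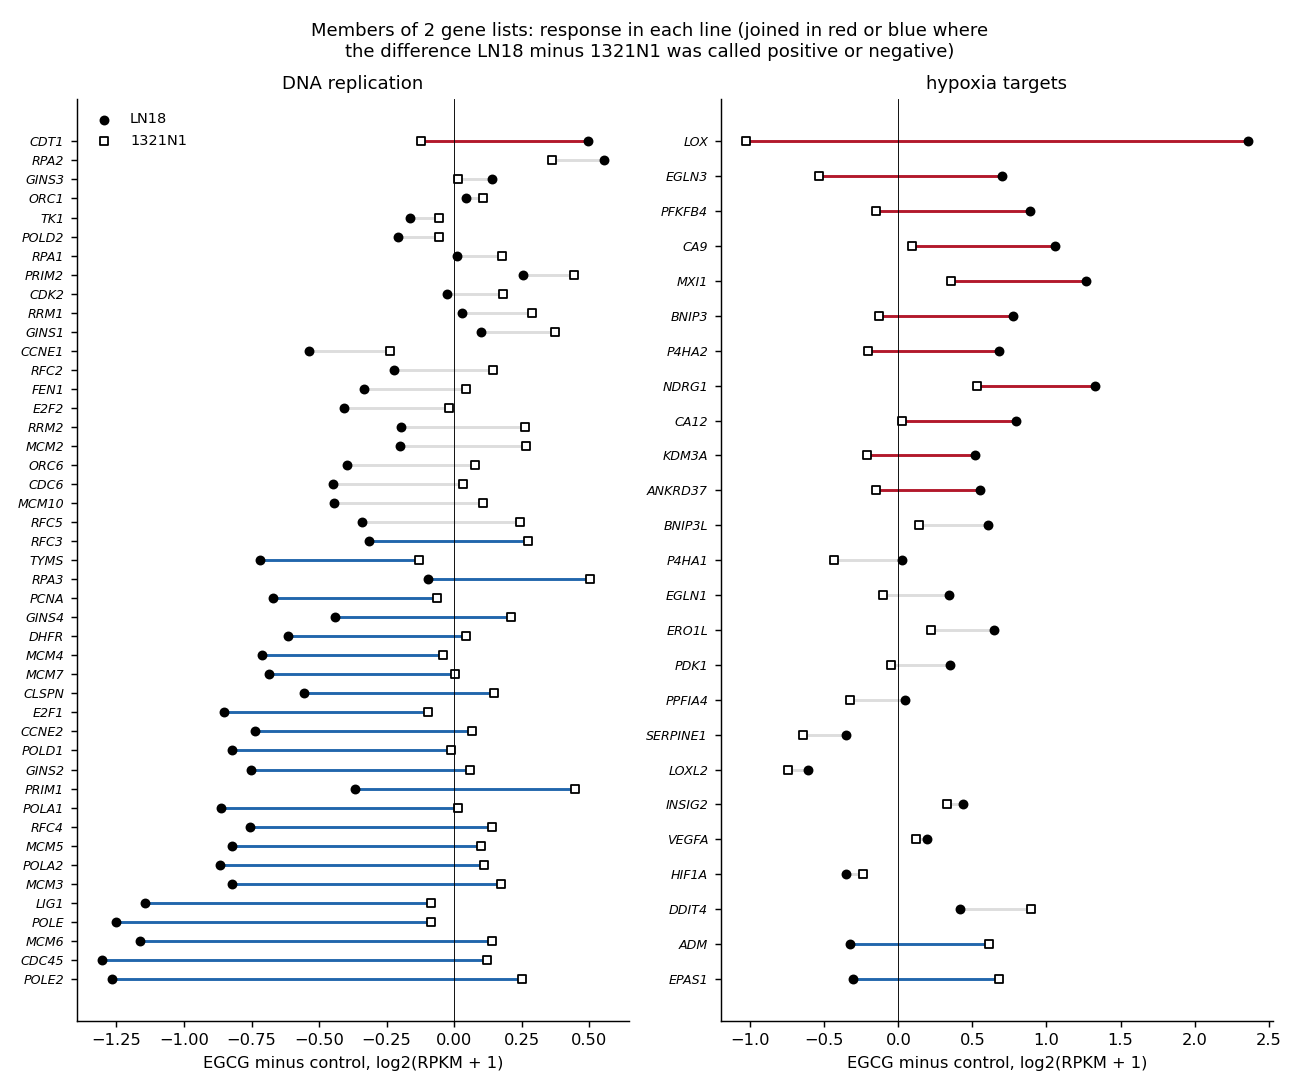
Response to EGCG (x axis, EGCG minus control in log2(RPKM + 1)) of each tested member of the DNA replication list (left, 45 genes) and of the hypoxia targets (right, 25 genes), 1 row per gene, ordered by the difference. Filled circles are LN18 and open squares 1321N1, joined in red or blue where the difference was called positive or negative, and most replication genes lie left of 0 in LN18 and near 0 in 1321N1.

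Splicing factors decide which exons are kept in an mRNA. Of 33 tested, 14 had a negative and none a positive difference (11.6 and 5.1% of all genes), with a median of -0.44. With 5 added in place of 1, 10 had a negative difference. In LN18 14 fell, against 9.52% of all genes, and in 1321N1 none was called and the median response was -0.01. The members called included 6 of 9 SRSF genes, which encode SR proteins that define exons. SRSF6 had 25.8, 25.5 and 26.2 RPKM in LN18 EGCG cells, against 64.7, 67.0 and 68.1 RPKM in LN18 controls. Its values in 1321N1 were 59.9, 61.8 and 56.9 RPKM with EGCG, against 64.1, 68.2 and 63.8 RPKM in controls. The groups did not overlap in either line, but the 1321N1 change of -0.13 was below the fold limit, and the difference was -1.20 (SE 0.053, limma adjusted p = 6.24e-08). TRA2A, a regulator of alternative exons, had the largest difference of the list, -1.51 (SE 0.066, limma adjusted p = 6.01e-08). The ribosomal proteins (73 tested) and the proteasome (29 tested) had no called difference under limma, with medians of 0.07 and -0.11, and without replicates 2 and 3 of 1321N1 EGCG 2 ribosomal protein genes were called.

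Hypoxia targets had the most positive differences, 11 of 25 tested, with 2 negative, against 5.1% positive and 11.6% negative among all genes. Their median difference was 0.46, with a median response of 0.52 in LN18 and -0.11 in 1321N1. Besides LOX they included EGLN3, a prolyl hydroxylase that marks hypoxia-inducible factors for degradation. EGLN3 had 10.8, 10.6 and 10.5 RPKM in LN18 EGCG cells, against 6.72, 5.82 and 5.96 RPKM in LN18 controls, and 0.674 to 0.784 RPKM with EGCG against 1.30 to 1.78 RPKM in controls in 1321N1. Its difference was 1.24 (SE 0.10, limma adjusted p = 2.99e-06). PFKFB4, which sets the level of fructose-2,6-bisphosphate, averaged 35.4 RPKM with EGCG and 18.7 RPKM in controls in LN18, with a difference of 1.04 (SE 0.068, limma adjusted p = 6.61e-07). EPAS1, the factor HIF-2alpha, went the other way: it rose in 1321N1 by 0.68, and the difference was -0.98 (SE 0.055, limma adjusted p = 2.39e-07). VEGFA, a known target that codes for an angiogenic growth factor, had a difference of 0.07 (limma adjusted p = 0.33). The count of 11 was the same under quantile normalization, and with 5 added in place of 1 it was 8. Without replicates 2 and 3 of 1321N1 EGCG the median difference of the list was 0.45.

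Glycolysis genes had 4 positive and no negative differences among 21 (19.05% called, against 16.7% of all genes and 5.1% positive). HK2, a hexokinase, had 80.0, 80.3 and 78.4 RPKM in LN18 EGCG cells, against 52.0, 53.4 and 52.2 RPKM in LN18 controls. In 1321N1 HK2 had 13.2 to 13.4 RPKM with EGCG and 16.5 to 17.5 RPKM in controls, and the difference was 0.93 (SE 0.039, limma adjusted p = 4.72e-08). ALDOC, the brain aldolase, had 189, 189 and 186 RPKM in LN18 EGCG cells, against 68.3, 56.6 and 61.0 RPKM in LN18 controls. ALDOC was at 0.686 RPKM or less in all 1321N1 libraries, and its difference of 1.33 was no longer called when 0.1 was added in place of 1 (0.77, limma adjusted p = 0.104). The median difference of the glycolysis list was 0.19 as deposited and -0.005 under quantile normalization.

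The called differences of sterol and fatty acid synthesis were negative. Of 24 genes of cholesterol synthesis 8 had a negative difference, with a median of -0.42, and of 13 genes of fatty acid synthesis 4, with a median of -0.40, against 11.6% negative among all genes. Positive differences below the fold limit were found for EBP, a sterol isomerase (0.51, limma adjusted p = 5.30e-05), and CYP51A1, lanosterol demethylase (0.42, limma adjusted p = 0.00032), and with 0.1 added in place of 1 the cholesterol list had 1 positive and 11 negative calls, and with 5 added none and 5. Of the cholesterol genes 5 rose and 1 fell in LN18, and 12 rose and none fell in 1321N1, where 7.98% of all genes rose in LN18 and 3.24% in 1321N1. IDI1, which makes dimethylallyl diphosphate, had 27.0, 29.1 and 24.8 RPKM in 1321N1 EGCG cells, against 12.9, 14 and 13 RPKM in 1321N1 controls. In LN18 IDI1 had 14.9, 14.1 and 13.8 RPKM with EGCG, against 14, 13.4 and 13.6 RPKM in controls, with overlap, and the difference was -0.91 (SE 0.077, limma adjusted p = 3.87e-06). LSS, lanosterol synthase, fell by 0.84 in LN18 and its response in 1321N1 was 0.39, below the fold limit. Its difference was -1.24 (SE 0.12, limma adjusted p = 8.27e-06). HMGCS1, which makes HMG-CoA, rose in both lines, by 0.96 in LN18 and 1.5 in 1321N1, and its difference of -0.54 was below the fold limit (limma adjusted p = 0.000326). ACACA, acetyl-CoA carboxylase, averaged 8.36 RPKM in LN18 EGCG cells, against 16.9 RPKM in LN18 controls, with a difference of -1.11 (SE 0.047, limma adjusted p = 4.87e-08).

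Of 33 NRF2 targets, 11 rose and 1 fell in LN18, against 7.98 and 9.52% of all genes, and 12 rose and none fell in 1321N1, against 3.24 and 1.46%. The difference was negative for 7 and positive for 2 (27.3% called), against 11.6 and 5.1% of all genes (16.7% called). Of the 7, 6 rose in 1321N1 and none rose in LN18. The 2 positive ones were SRXN1 (0.80) and AKR1C2 (0.73), which rose in LN18 and were not called in 1321N1. The median difference of the list was -0.11, near the -0.08 of all genes. NQO1, a quinone reductase, had 209.8, 205 and 209.6 RPKM in LN18 EGCG cells, against 267, 269.7 and 271 RPKM in LN18 controls. The 1321N1 libraries had 74.1, 78.2 and 76.0 RPKM with EGCG, against 40.3, 42.9 and 42.4 RPKM in controls. Within each line the groups did not overlap, but the LN18 change of -0.37 was below the fold limit, and the difference was -1.22 (SE 0.042, limma adjusted p = 1.68e-08).

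SLC7A11, the cystine transporter that feeds glutathione synthesis, had 32.0, 29.6 and 26 RPKM in 1321N1 EGCG cells, against 9.61, 10.3 and 9.85 RPKM in 1321N1 controls. In LN18 its groups overlapped, with 99.2, 96.1 and 97.6 RPKM with EGCG, against 89.4, 101 and 98.6 RPKM in controls. The difference was -1.44 (SE 0.094, limma adjusted p = 6.61e-07), and the level stayed higher in LN18 throughout. The stress enzyme HMOX1, which degrades heme, had a positive difference of 0.51, below the fold limit (limma adjusted p = 0.00040). TFRC, the transferrin receptor through which cells take up iron, was called in 1321N1 and not in LN18. It had 114, 113 and 104 RPKM in 1321N1 EGCG cells, against 38.6, 41.0 and 39.0 RPKM in 1321N1 controls, and 66.7 to 67.9 RPKM with EGCG and 65.4 to 75.3 RPKM in controls in LN18. The difference of TFRC was -1.51 (SE 0.071, limma adjusted p = 8.29e-08). In the list of heme and iron genes 3 of 15 had a negative difference (20%) and none a positive one, against 11.6% negative and 16.7% called among all genes, which is too close to read as a result about the list.

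**Figure D4:**
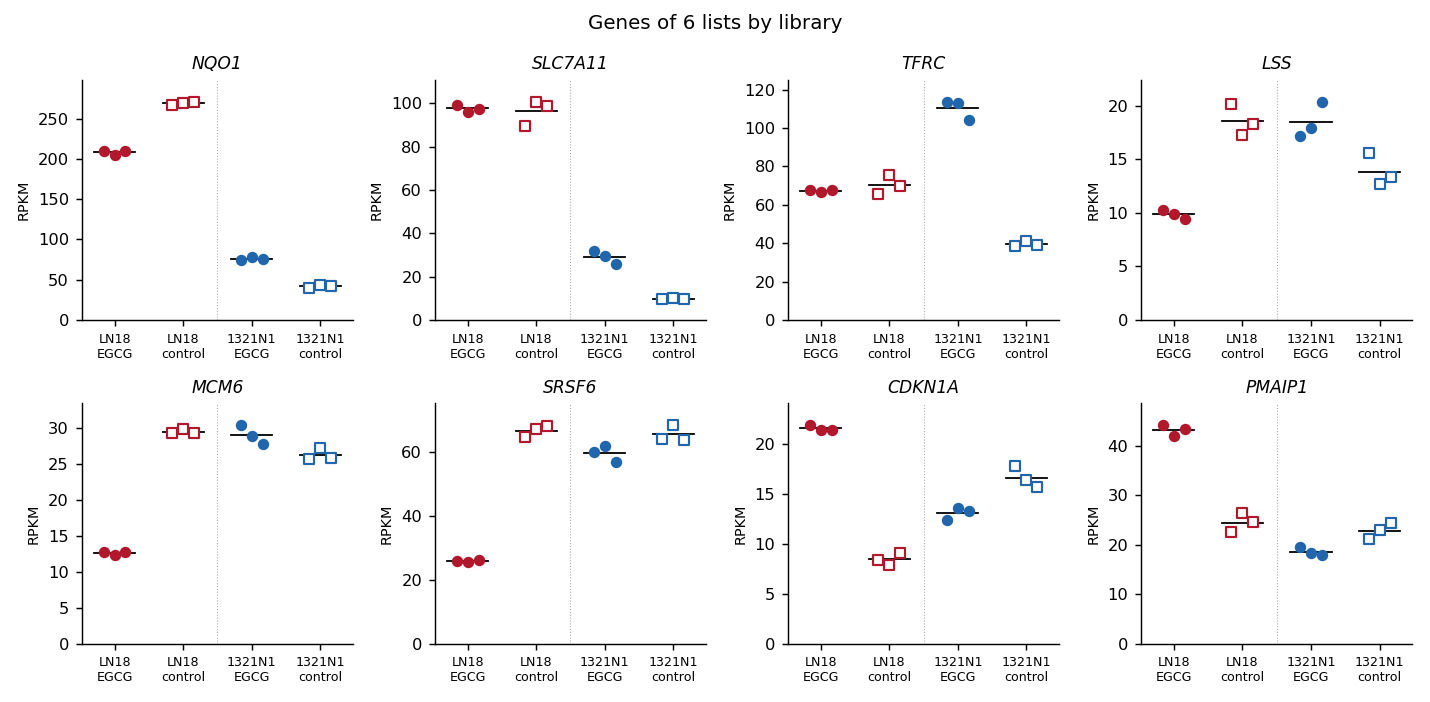
Level in RPKM (y axis, from 0) of NQO1, SLC7A11, TFRC, LSS, MCM6, SRSF6, CDKN1A and PMAIP1 by group and library. Each point is 1 library, filled circles are EGCG, open squares are controls, red is LN18, blue is 1321N1, and the bar is the mean of 3 libraries, and NQO1, SLC7A11 and TFRC were higher with EGCG in 1321N1 only, while MCM6 and SRSF6 were lower with EGCG in LN18 only past the fold limit.

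The metallothioneins MT2A and MT1X, small proteins that bind zinc and copper, fell in both lines, and the fall was larger in LN18. MT2A had 38.5, 39.7 and 37.4 RPKM in LN18 EGCG cells, against 227, 224 and 231 RPKM in LN18 controls. In 1321N1 it had 50.7, 52.7 and 63.0 RPKM with EGCG, against 123, 107 and 109 RPKM in controls. The groups did not overlap in either line, and the difference was -1.51 (SE 0.10, limma adjusted p = 9.42e-07). MT1X had a difference of -0.81 (SE 0.13, limma adjusted p = 0.000326), and it was -0.57 and no longer called without replicates 2 and 3 of 1321N1 EGCG. SLC30A1, the zinc exporter that shares their regulator, had a difference of -0.73 (SE 0.11, limma adjusted p = 0.000174). Only these 3 of the 12 symbols listed were analysed here, and MT2A and MT1X are near-identical to other metallothioneins with which they may share reads.

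The MT2A promoter is shown because this gene had the largest fall of the list in both lines. TGCNCNC, a looser form of the core of the metal response element, matches 8 times over both strands, and the matches are in capitals. The same letters occur in 15063 of 27305 windows (55.2%), and in the windows of all 3 members (RefSeq, GRCh38.p14).

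MT2A, chr16:56608334-56608633, plus strand: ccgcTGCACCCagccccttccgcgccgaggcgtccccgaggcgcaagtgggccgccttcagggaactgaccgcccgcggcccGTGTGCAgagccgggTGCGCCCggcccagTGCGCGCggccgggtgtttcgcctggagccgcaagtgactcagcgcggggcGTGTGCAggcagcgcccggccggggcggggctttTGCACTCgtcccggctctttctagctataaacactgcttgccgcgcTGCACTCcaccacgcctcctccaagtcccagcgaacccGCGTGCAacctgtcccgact

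Of 29 targets of ATF4 and its partner CHOP, 15 rose and 1 fell in LN18, against 7.98 and 9.52% of all genes. In 1321N1 13 rose and none fell, against 3.24 and 1.46% of all genes, and the medians of the responses were 0.61 in LN18 and 0.48 in 1321N1. ATF4 itself had a difference of -0.09 (limma adjusted p = 0.337) and DDIT3, which encodes CHOP, one of -0.08 (limma adjusted p = 0.674). Of the list, 5 had a positive and 1 a negative difference, so that 20.7% were called, against 16.7% of all genes (5.1% positive, 11.6% negative). The median difference of the list was -0.06, near the -0.08 of all genes, so the list as a whole did not respond more in LN18. The 1 negative member was CHAC1 (-0.62, limma adjusted p = 0.00299), which rose in both lines and more in 1321N1. INHBE, an activin subunit, had 11.5, 11.4 and 11.2 RPKM in LN18 EGCG cells, against 1.82, 1.11 and 1.09 RPKM in LN18 controls, and 3.85, 3.74 and 4.60 RPKM with EGCG against 0.629, 0.846 and 0.862 RPKM in controls in 1321N1. INHBE rose in both lines, with a difference of 0.91 (SE 0.16, limma adjusted p = 0.000521). The stress cytokine GDF15 had a difference of 1.14 (SE 0.21, limma adjusted p = 0.00096), and it was at most 1.053 RPKM in any 1321N1 library and no longer called when 0.1 was added in place of 1.

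Among ER chaperones and sensors 3 of 23 had a positive difference and none a negative one, with a median of 0.32, so that 13.04% were called, against 16.7% of all genes (5.1% positive). HERPUD1, which acts in degradation from the ER, averaged 27.2 RPKM with EGCG and 11 RPKM in controls in LN18, and 8.30 RPKM with EGCG and 5.80 RPKM in controls in 1321N1. Its difference was 0.78 (SE 0.077, limma adjusted p = 1.04e-05). The others were DNAJB9, a co-chaperone (1.01), and CREB3L1, a transcription factor of the ER membrane (1.12). Autophagy and lysosome genes had 4 positive and no negative differences among 29 (13.8% called, against the same shares of all genes), led by MAP1LC3B, which encodes the LC3B protein of the autophagosome. MAP1LC3B had 70.5, 68.5 and 69.6 RPKM in LN18 EGCG cells, against 32.6, 33 and 31.6 RPKM in LN18 controls. Libraries of 1321N1 had 13.7 to 14 RPKM with EGCG and 11.9 to 12.3 RPKM in controls, and the difference was 0.90 (limma adjusted p = 4.72e-08).

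Matrix genes moved in both directions. Of 36 genes of the extracellular matrix and its proteases 7 had a positive and 7 a negative difference (38.9% called), against 5.1 and 11.6% of all genes. In each line 1 rose and 13 fell, where 9.52% of all genes fell in LN18 and 1.46% in 1321N1. Without replicates 2 and 3 of 1321N1 EGCG the list had 11 positive and 7 negative differences, and with 5 added in place of 1 it had 6 and 4. COL1A1, the chain of type I collagen, had 80.6, 86.8 and 101 RPKM in 1321N1 EGCG cells, against 201, 171 and 178 RPKM in 1321N1 controls, and about 2 RPKM in every LN18 group. Its difference was 1.14 (SE 0.12, limma adjusted p = 1.48e-05). LAMB1, a laminin chain, averaged 24.7 RPKM in LN18 EGCG cells, against 65.9 RPKM in LN18 controls, with a difference of -1.14 (limma adjusted p = 2.54e-08). TGFBI, a matrix protein induced by TGF-beta, had 0.490, 0.851 and 0.432 RPKM in 1321N1 EGCG cells, against 6.69, 6.29 and 5.94 RPKM in 1321N1 controls, with a difference of 1.67 (limma adjusted p = 8.08e-07).

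Of 21 genes of integrins and adhesion 6 had a negative and 1 a positive difference (33.3% called), with a median of 0.02. Over all genes 11.6% were negative and 5.1% positive. The 1 positive member was ITGA5, which binds fibronectin, and ITGA6, which binds laminin, had the largest negative difference. VCAM1 (-0.82) and ITGA2 (-0.80) were also negative. ITGA6 averaged 5.52 RPKM with EGCG and 15.8 RPKM in controls in LN18, and 48.7 RPKM with EGCG and 42.4 RPKM in controls in 1321N1, with a difference of -1.56 (SE 0.071, limma adjusted p = 7.29e-08). ITGA5 averaged 33.7 RPKM with EGCG and 19 RPKM in controls in LN18, and 25.1 RPKM with EGCG and 33.3 RPKM in controls in 1321N1, with a difference of 1.19 (SE 0.052, limma adjusted p = 6.01e-08). Targets of YAP had 6 negative and no positive differences among 22 (27.3% called, against 16.7% of all genes and 11.6% negative), led by NT5E (-1.52), an ectonucleotidase, and F3 (-1.17), tissue factor. ID1 and ID3, inhibitors of differentiation that respond to BMP, fell in both lines and were not called for the difference (0.28 and 0.54, limma adjusted p = 0.0662 and 0.00207).

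**Figure D5:**
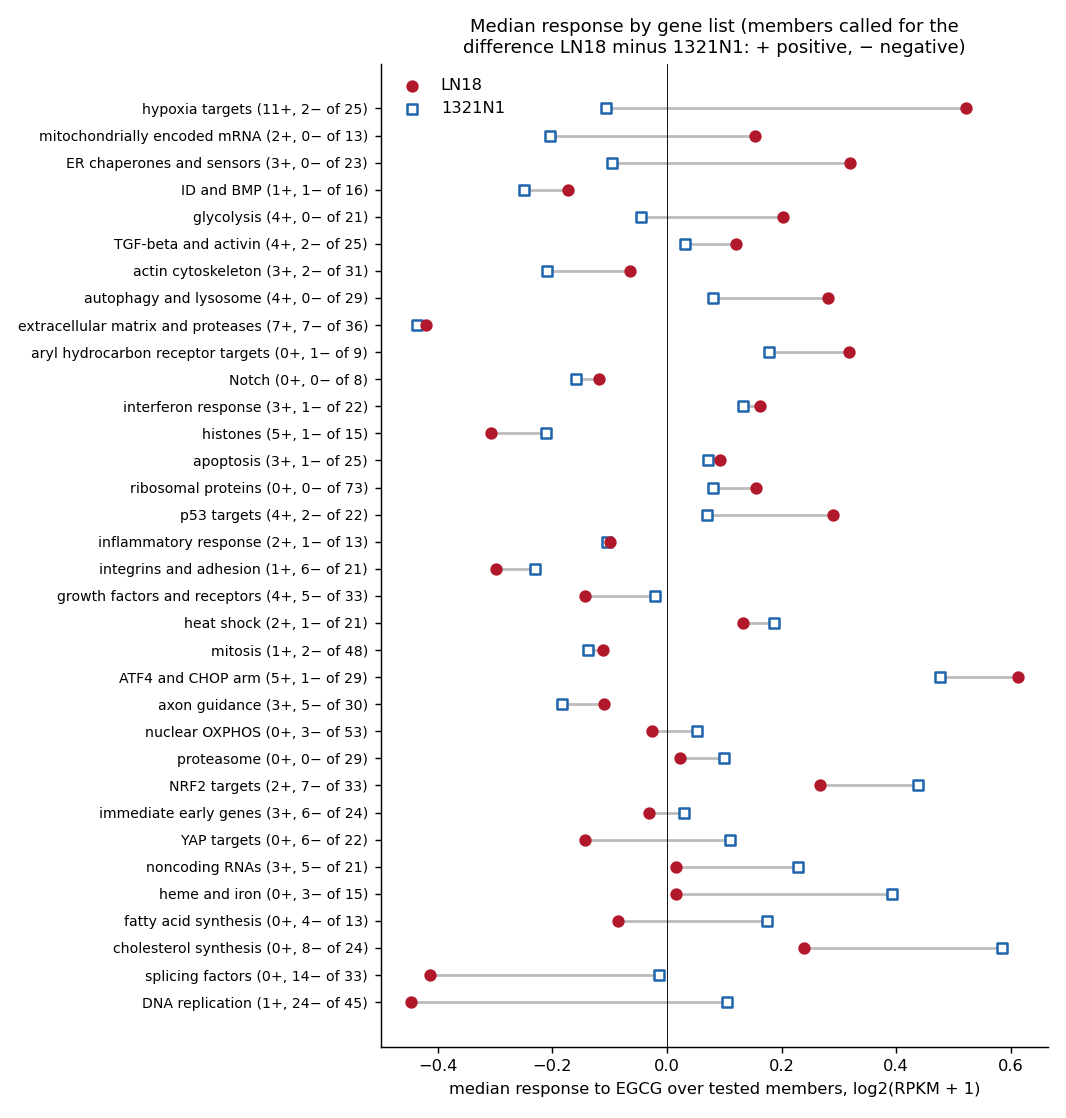
Median response to EGCG (x axis, log2(RPKM + 1)) over the tested members of each gene list with at least 8 of them, in LN18 (filled red circles) and 1321N1 (open blue squares), ordered by the median difference of the members. The numbers beside each list give its members with a positive and a negative difference called, 11 and 2 of 25 for hypoxia targets at the top and 1 and 24 of 45 for DNA replication at the bottom.

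Further lists are read against the 5.1% of all genes with a positive and the 11.6% with a negative difference. Axon guidance genes had 3 positive and 5 negative differences among 30 (26.7% called), and with 5 added in place of 1 they had 0 and 2. Noncoding RNAs had 3 and 5 among 21 (38.1%), and growth factors and receptors 4 and 5 among 33 (27.3%). Apoptosis genes had 3 and 1 among 25 (16%), near the share of all genes. Histone genes had 5 positive and 1 negative difference among 15, and 4 of the 5 fell in 1321N1 and none was called in LN18. These values are of poly(A) RNA, and histone mRNA without a poly(A) tail was not measured. Immediate early genes, the first to respond to growth factors and stress, had 3 positive and 6 negative differences among 24, and all 6 negative ones fell in LN18. Genes of TGF-beta and activin signalling had 4 positive and 2 negative differences among 25 (24% called), and interferon response genes 3 and 1 among 22 (18.2%), which is near the 16.7% of all genes and not a result about that list. Of the nuclear genes of oxidative phosphorylation 3 of 53 had a negative difference, with a median of -0.09, and the heat shock genes had 2 positive and 1 negative among 21 (14.3% called, near that of all genes). Notch genes had no called difference among 8 under limma, and without replicates 2 and 3 of 1321N1 EGCG 1 was called. Without these libraries the immediate early genes had 5 positive differences and still 6 negative. With 5 added in place of 1, the immediate early genes had 2 positive and 2 negative, the histones 2 and 0, TGF-beta and activin genes 2 and 1, interferon genes 1 and 0, and oxidative phosphorylation 0 and 1.

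Transcripts of the mitochondrial genome took a larger share of all RPKM with EGCG in LN18 and a smaller one in 1321N1. The share was 7.46% ± 0.183 with EGCG and 6.36% ± 0.313 in controls in LN18, and 10.05% ± 0.332 with EGCG and 11.4% ± 0.547 in controls in 1321N1 (SD, n = 3). The groups did not overlap in either line, and the exact two-sided permutation test gave p = 0.10 in each, the smallest that 3 against 3 allow. These shares include the mitochondrial rRNAs, which were listed at 0 in replicates 2 and 3 of 1321N1 EGCG. Without the rRNAs the share was 7.21% ± 0.184 with EGCG and 6.22% ± 0.310 in controls in LN18 (0.990 points), and 9.95% ± 0.268 with EGCG and 11.1% ± 0.531 in controls in 1321N1 (-1.12 points), with the same p. A larger share for some genes lowers the RPKM of all others, and rescaling over the other genes gave 636 positive and 1615 negative differences. Of 13 mitochondrial mRNAs 2 had a positive difference, MT-CO2 (0.96) and MT-ND1 (0.72), and neither was called under quantile normalization, where the median of the list was 0, against 0.32 as deposited. Quantile normalization gives every library the same value at each rank. Abundant genes that keep a top rank then show little difference, so it cannot decide whether these mRNAs differed.

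The called genes also differed by size. Among 10331 protein-coding genes with an annotation, 5.66% of the quintile with the shortest spans had a negative difference, against 9.39, 12.1, 13.02 and 11.4% of the following quintiles. Positive differences ran the other way, with 7.64% in the shortest quintile and 3.001% in the longest. The span is that of the gene in GENCODE v44lift37 with its introns, and genes without a match by symbol were left out.

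The genes set apart numbered 795, and 641 of them were above 0 in all 6 LN18 libraries. Replicate 1 of 1321N1 EGCG had more than 1 RPKM for 231 of them. MT-RNR2, the large ribosomal RNA of mitochondria, had 656 RPKM in replicate 1 and was listed at 0 in replicates 2 and 3, against 683, 737 and 768 RPKM in 1321N1 controls. RPSAP15, a pseudogene of a ribosomal protein, had 60.9 RPKM in replicate 1 and 43.3 to 55.1 RPKM in controls. Of the 795, 540 had no annotation by symbol (67.92%, against 30.69% of all genes listed), so that their type is not known. A further 127 were processed pseudogenes (15.97%, against 2.12% of all genes listed) and 21 protein-coding (2.64%, against 60.6%). No difference was tested for these genes, and when they were kept in the fit the genes that fell in 1321N1 numbered 308, against 194 without them.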

How the data were processed

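Poly(A) RNA of 12 libraries (TruSeq RNA v2, which keeps no strand; Illumina HiSeq) was trimmed, checked with FastQC and mapped by the authors in CLC Genomics Workbench to GRCh37 (hg19, per the submitters' processing notes). The authors deposited RPKM per gene and library in 1 sheet per group, and the depth was recovered from steps between low values. In replicates 2 and 3 of 1321N1 EGCG, 58.5 and 58.8% of these values lay within 0.1 of a whole read (53 and 51 values). In the other libraries 81.2 to 88.5% did (202 to 279 values). The depths of replicates 2 and 3 of 1321N1 EGCG are thus the least supported, and these shares were too low for a count test. The 4 sheets share 22721 genes, after 25 or 26 symbols turned into dates were left out of each, and 15875 (69.9%) matched GENCODE v44lift37 by symbol.

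Genes averaging 1 RPKM or more over the 12 libraries, less those set apart, were fitted as log2(RPKM + 1) with limma 3.58.1 in R 4.3.3 (group means over 12 libraries, trended empirical Bayes, Benjamini-Hochberg adjustment over 13250 genes). The sheets of hydroxychavicol and of both agents were not used here. Tables, tests and plots used Python 3.11.15, numpy 2.4.6, pandas 2.3.3, scipy 1.17.1 and matplotlib 3.10.9. On simulated data for the difference (13250 genes), 48.0% of genes changed 1.5-fold, 92.0% at 2-fold and 100.0% at 4-fold and 8-fold were called, and 5 unchanged genes were. Changes were planted in 50 genes per fold, taken only from the more strongly expressed ones. They were added on the log2(RPKM + 1) scale with independent normal noise, so these shares do not cover weakly expressed genes or deviating libraries.

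Named genes were the 12 largest positive and negative differences with at least 10 RPKM and no overlap in the line with the larger change, up to 4 called members per list, up to 6 genes per opposite orientation with at least 5 RPKM, up to 4 called in the same direction in both lines, 6 genes set apart, and a fixed set of reference and stress genes. The members and the gene lists were chosen with earlier results of these data known. Alternatives were the added constant (0.1 and 5), the filter, the scaling, the genes set apart, a replicate block, weights, the fold limit, the adjustment and libraries left out, and those on list counts were chosen after seeing the data.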

Additional observations from a re-analysis of the deposited data

Results flagged for a closer look

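The test of the difference itself set 2213 genes apart between the lines. Among the named genes that moved in opposite directions, the difference of the responses was positive for LOX (3.39), SLPI (3.0), MFAP4 (1.87), CRABP2 (1.85) and CHST3 (1.30), which rose in LN18 and fell in 1321N1. It was negative for RP11-87H9.2 (-2.48), CCDC144NL (-2.42), RP11-146D12.2 (-2.40), PTX3 (-2.27), RP11-197K6.1 (-2.14), AC097374.2 (-2.03) and FST (-1.80), which fell in LN18 and rose in 1321N1. In CCDC144NL, RP11-146D12.2 and AC097374.2 replicates 2 and 3 of 1321N1 EGCG were higher than replicate 1, and the part of these libraries in the result was not tested beyond the values without them.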

How the results depend on the processing

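Of 144 named genes called for the difference, 144 kept their direction and 99 their call under every alternative that tested them (at most 24). Most were picked for a large difference in these same libraries, so a kept direction is no independent support. With 5 added in place of 1 the difference was called for 791 genes (251 positive, 540 negative), LN18 for 846 (370 higher, 476 lower), 1321N1 for 220 (141 higher, 79 lower) and 9 genes were opposite. With 10 RPKM as the lowest mean, where fewer genes are tested, these counts were 754 (239 and 515), 878 (389 and 489), 214 (140 and 74) and 13. Without a fold limit they were 7254 (2665 and 4589), 8857 (4586 and 4271), 6768 (5082 and 1686) and 1405. With Bonferroni adjustment the difference was called for 1150 genes (300 and 850), 1321N1 for 325 (201 and 124) and 12 were opposite. With 0.1 added, 1321N1 had 1181 calls (873 and 308) and 81 genes were opposite. The genes lower in 1321N1 numbered 295 under quantile normalization and 308 with the genes at 0 kept. With more than 1 RPKM required in replicate 1, 231 genes were set apart. The sign turned for genes that were not called: DDIT3 (0.0808 with 5 added, -0.2082 to 0.0188 with a library left out, highest without replicate 2 of 1321N1 EGCG), CYP1B1 (-0.3336 with 0.1 added), MYC (0.0623 under quantile normalization, -0.1302 to 0.0153 with a library left out, above 0 without replicate 2 of LN18 control and, at 0.0092, of 1321N1 control) and GAPDH (-0.1677 under quantile normalization). The cause was not tested.

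Leaving out each library in turn gave 2148 to 2319 differences (634 to 722 positive, 1474 to 1597 negative), 2290 to 2335 calls in LN18 (1026 to 1084 higher, 1231 to 1271 lower), 575 to 685 in 1321N1 (374 to 454 higher, 174 to 245 lower) and 27 to 36 opposite genes. The change in mitochondrial share was 0.9294 to 1.2156 points in LN18 and -1.6025 to -1.0741 in 1321N1. Deviations of same-numbered libraries had correlations of -0.049 to -0.0088 in LN18 and -0.171 to 0.061 in 1321N1. Between libraries of unlike number they were -0.0255 to 0.0513 in LN18 and -0.184 to 0.260 in 1321N1. No pairing by number was seen, but so few libraries per group cannot exclude it. With a replicate block 2205 genes differed (680 positive, 1525 negative) and 31 were opposite. Of the 2213 differences 1811 were also called under quantile normalization and 1966 without replicates 2 and 3 of 1321N1 EGCG. Depth limits genes near 1 RPKM, and 638 calls lay within 0.1 of the fold limit.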
